A study of Mus musculus with 6 samples.

Results

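Open chromatin of mouse pancreatic islets was compared by ATAC-seq between control islets given a GFP virus and Rictor knockout islets given an Acsl4 virus. ATAC-seq marks open DNA by letting the Tn5 transposase insert sequencing adapters into it. The group labelled control-GFP consists of islets of wildtype mice treated with the adenovirus Ad-GFP. The group labelled knockout-Acsl4 consists of islets of BetaRicKO mice, which lack Rictor in beta cells, treated with Ad-Acsl4, an adenovirus that carries Acsl4. Genotype and virus therefore both differ between these groups, and their parts cannot be told apart here. Another group, of BetaRicKO islets treated with Ad-GFP, labelled knockout-GFP, served only as a readout. Each group has 2 libraries, all from mice of 16 weeks, with 48 h of virus in culture and 50 islets per sample. Whole islets were used, so cells other than beta cells, which the knockout does not target by its name, are part of every library. Neither the strain nor the Cre driver is given in the sources used, nor is it stated whether both libraries of a group derive from different mice. In such bulk samples, fewer cells of a type and less open chromatin per cell cannot be told apart.

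The compared features are regions. Peaks of the 4 deposited lists that overlapped by at least 1 bp were merged, which gave 11590 regions, against 13633 when all 6 lists were merged. A region with a peak in both lists labelled control-GFP and in neither list labelled knockout-Acsl4 is called control-only here, the reverse pattern knockout-Acsl4-only, and a region with a peak in at least 1 list of each group shared. Of the 11590 regions, 256 (2.21%) were control-only, 3 (0.0259%) were knockout-Acsl4-only and 395 (3.41%) were shared. The rest, 10936 regions, were called in a single list. A region was placed at a gene end when it lay within 1000 bp of either end of a protein-coding gene, and such a gene was called marked in that list.

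Rictor is the subunit that defines mTORC2, the kinase complex that phosphorylates AKT and so keeps forkhead factors such as FOXO1 out of the nucleus. Acsl4 is an acyl-CoA synthetase that prefers long polyunsaturated fatty acids and feeds them into phospholipids. Open chromatin in islets lies at distal enhancers of cell identity genes and at the starts of broadly expressed genes. The latter are commonly CpG-rich and often carry the CCAAT letters bound by NF-Y and the GC box bound by SP factors.

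The 150 bases before the start of 11 genes are shown as examples of promoters with and without a peak in the lists labelled knockout-Acsl4. Of these, 9 are control-only genes of the gene lists, chosen after their letters were seen so that windows with and without CCAAT appear. Zyx is a control-only gene without a call in either list labelled knockout-GFP, and Rab8a is a shared gene. The sequences are those of the RefSeq promoter table (GRCm38.p6), written 5′ to 3′ along the gene. The start is the one of that table and can lie inside the gene bounds used for gene ends. The windows of Zyx, Cblb and Derl2 therefore lie wholly inside these bounds, and those of Tomm40, Eif2ak3 and Smarca4 in part. Capitals mark matches on either strand to the motifs named further on, so that CCAAT also appears as ATTGG and GGGCGG as CCGCCC.
Tomm40: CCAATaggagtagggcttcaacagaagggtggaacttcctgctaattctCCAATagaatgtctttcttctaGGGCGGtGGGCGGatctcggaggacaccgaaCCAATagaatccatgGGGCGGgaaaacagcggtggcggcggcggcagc
Cblb: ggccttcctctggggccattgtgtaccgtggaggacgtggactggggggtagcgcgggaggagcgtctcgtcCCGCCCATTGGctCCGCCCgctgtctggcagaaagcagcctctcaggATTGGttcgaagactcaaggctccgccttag
Eif2ak3: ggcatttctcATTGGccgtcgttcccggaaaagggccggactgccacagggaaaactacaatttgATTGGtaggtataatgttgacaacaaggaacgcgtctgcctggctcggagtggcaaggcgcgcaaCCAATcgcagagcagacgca
Hspa5: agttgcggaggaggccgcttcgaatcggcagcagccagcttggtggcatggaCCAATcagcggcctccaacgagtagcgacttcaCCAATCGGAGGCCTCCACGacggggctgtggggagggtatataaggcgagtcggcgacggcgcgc
Derl2: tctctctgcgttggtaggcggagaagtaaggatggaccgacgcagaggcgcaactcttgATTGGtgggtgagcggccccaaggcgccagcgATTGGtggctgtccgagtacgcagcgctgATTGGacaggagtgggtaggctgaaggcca
Dnajb11: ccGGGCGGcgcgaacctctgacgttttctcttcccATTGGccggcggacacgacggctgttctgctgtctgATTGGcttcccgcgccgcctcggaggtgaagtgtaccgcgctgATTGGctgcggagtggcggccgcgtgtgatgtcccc
Ppp2r1a: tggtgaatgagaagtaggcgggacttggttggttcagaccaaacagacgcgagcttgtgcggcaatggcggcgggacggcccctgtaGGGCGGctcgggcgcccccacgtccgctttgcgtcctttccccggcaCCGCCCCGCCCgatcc
Smarca4: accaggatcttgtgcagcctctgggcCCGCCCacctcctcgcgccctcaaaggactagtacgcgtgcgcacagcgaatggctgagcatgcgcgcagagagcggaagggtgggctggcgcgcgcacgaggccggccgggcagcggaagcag
Tomm70a: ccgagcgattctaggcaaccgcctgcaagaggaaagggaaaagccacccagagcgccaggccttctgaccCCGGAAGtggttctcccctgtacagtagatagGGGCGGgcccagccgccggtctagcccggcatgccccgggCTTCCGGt
Zyx: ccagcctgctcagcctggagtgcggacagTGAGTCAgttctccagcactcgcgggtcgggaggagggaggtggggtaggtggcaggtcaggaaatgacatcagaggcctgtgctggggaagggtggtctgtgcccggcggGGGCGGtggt
Rab8a: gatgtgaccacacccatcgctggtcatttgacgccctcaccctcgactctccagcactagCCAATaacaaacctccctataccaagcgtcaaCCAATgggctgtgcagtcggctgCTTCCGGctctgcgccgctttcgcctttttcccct
These windows are chr7:19715430-19715579 on the minus strand for Tomm40, and chr16:52031399-52031548 on the plus strand for Cblb. Ppp2r1a has chr17:20945304-20945453, Smarca4 chr9:21616019-21616168 and Tomm70a chr16:57121564-57121713, all on the plus strand. Those of the stress genes are chr6:70844365-70844514 on the plus strand for Eif2ak3, chr2:34771940-34772089 on the plus strand for Hspa5, chr11:71019304-71019453 on the minus strand for Derl2, and chr16:22857695-22857844 on the plus strand for Dnajb11. Zyx has chr6:42349678-42349827 and Rab8a chr8:72161050-72161199, both on the plus strand. Of the 14 control-only genes of the gene lists, 8 have CCAAT letters in this window, and Svip, Ppp2r1a, Smarca4, Smarcc1, Tomm70a and Polr2a do not. No share over all promoters was taken for this window of 150 bases, so the count cannot be called high or low. Zyx holds a GC box and an AP-1 match, and Rab8a holds CCAAT and an ETS match. The merged region covers all 150 bases in 8 of the windows shown, part of them at Tomm40 and Dnajb11, and 44 at Hspa5, where the capitals lie between the region and the start.

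The number of peaks differed more within groups than between them. There were 4442 and 1628 peaks in the lists labelled control-GFP 1 and 2, and 525 and 5874 in the lists labelled knockout-Acsl4 1 and 2. The sources used here give no read depth, and precision can be judged only from the number of peaks. Peaks at gene ends made up 70.9% and 21.7% of the lists labelled control-GFP, and 35.8% and 5.29% of the ones labelled knockout-Acsl4. The group means were 46.3% ± 34.8 and 20.6% ± 21.6 (SD, n = 2 each), a difference of -25.7 percentage points (two-sided exact permutation p = 0.667, where 0.333 is the smallest possible). That difference was -1.13 points without the library labelled control-GFP 1, -50.4 without the one labelled control-GFP 2, -41.0 without the one labelled knockout-Acsl4 1 and -10.5 without the one labelled knockout-Acsl4 2. Rictor (chromosome 15, 6708349 to 6800401) had no peak in any of the 6 lists. Acsl4 (chromosome X, 142317993 to 142390802) held 7 peaks in the list labelled control-GFP 1, at percentiles from 40.7 to 98.5. It held 6 in the one labelled knockout-GFP 1, at percentiles from 93.9 to 98.2. It held none in either list labelled knockout-Acsl4, nor in the ones labelled control-GFP 2 and knockout-GFP 2. If these peaks come from the Acsl4 virus, this goes against the labels, but their origin was not tested. Every direction that follows therefore holds for the libraries as labelled.

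Islet markers were nearly without peaks. Of 23 beta cell identity genes, Nkx6-1 and Mafa, transcription factors of mature beta cells, were marked in the list labelled control-GFP 1, and no member was marked in the other 3 compared lists. Ins1, Ins2 and Pdx1 were among the unmarked genes. The list labelled control-GFP 1 thus marked 8.70% of these 23 genes, beside 16.7% of all genes. The other 3 lists marked from 1.02% to 2% of all genes, so none among 23 is near that share. None of 10 genes of other endocrine cells, 14 of acinar and ductal cells, 15 of endothelial, stromal and immune cells and 12 genes silent in islets was marked in the 4 lists. The markers therefore do not check the tissue label.

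Control-only regions were mostly promoters. Of the 256, 207 (80.9%, 95% exact Clopper-Pearson interval 75.5 to 85.5) lay at gene ends, and 189 (73.8%) covered or flanked a gene start of the promoter table within 1000 bp. Shared regions lay at gene ends in 197 of 395 cases (49.9%, 44.8 to 54.9), and those called in all 4 lists in 2 of 51 (3.92%, 0.478 to 13.5). Regions of the list labelled control-GFP 1 alone lay there in 72.0% of 3815 cases, and those of the list labelled control-GFP 2 alone in 8.49% of 1202. Regions of only the lists labelled control-GFP 1 and knockout-Acsl4 1 did so in 68.2% of 170. A place at gene ends is therefore not particular to control-only regions. A control-only region was 388.5 bp wide in the median. For the 189 chosen as within 1000 bp of a start, the centre lay at a median of -111.5 bp from the nearest start, on the upstream side. In 38 of the 256 cases (14.8%) the region lay at the starts of 2 genes. None of the 3 knockout-Acsl4-only regions lay at a gene end. The intervals of these shares cover counting error only. Each count rests on single lists. Without the library labelled control-GFP 1 there were 1465 control-only regions and 161 shared ones, without the one labelled control-GFP 2 there were 4073 control-only regions, and without the one labelled knockout-Acsl4 1 there were 141 shared ones.

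**Figure D1:**
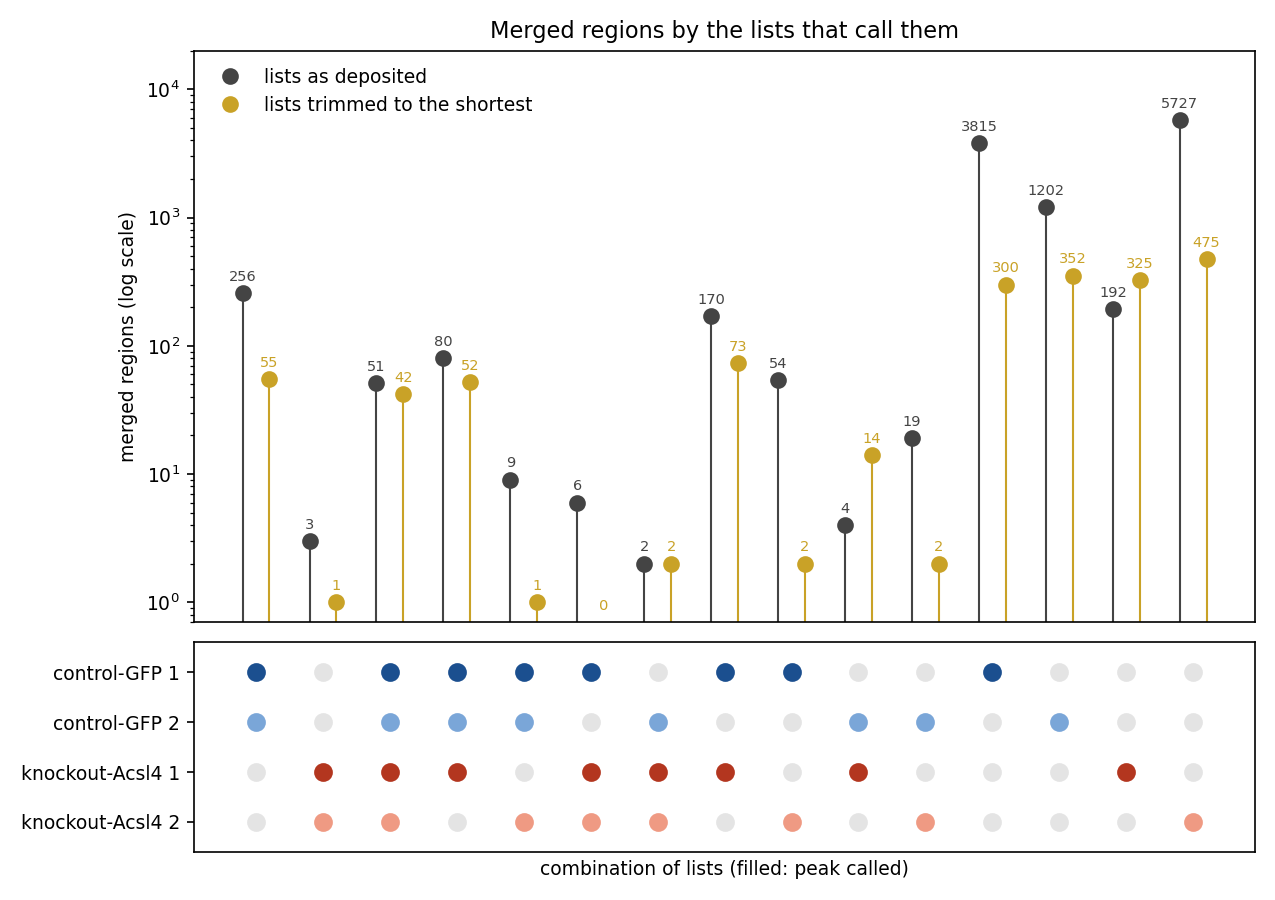
Number of merged regions (log scale) for each of the 15 combinations of the 4 compared lists, with the lists as deposited (grey) and trimmed to their best 525 peaks (gold). Filled circles below mark the lists that call the region. Regions of a single list are the most numerous, and 256 control-only regions stand against 3 knockout-Acsl4-only regions.

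Most combinations that crossed the groups contained the list labelled control-GFP 1. It shared 170 regions with the list labelled knockout-Acsl4 1 alone and 54 with the one labelled knockout-Acsl4 2 alone. The list labelled control-GFP 2 shared 4 and 19 regions with them in the same way. A further 80 regions joined both control lists to the list labelled knockout-Acsl4 1 and 9 to the one labelled knockout-Acsl4 2. The libraries labelled knockout-Acsl4 had 62 regions in common, of which 51 were also in both control lists. Of those 51, 50 were called in all 6 lists of the series, and 41 were intergenic. Close together at the start of chromosome 9 lay 13 of the 51, and 21 of all 395 shared regions. The highest score of each compared list, from 2868.7 to 10834.8, stood in a region on chromosome 2 called in all 4. Whether such regions are ordinary open chromatin was not tested.

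Gene-end regions of the short list labelled knockout-Acsl4 1 were mostly called in the list labelled control-GFP 1 as well. Of 186 such regions, 157 (84.4%, 78.4 to 89.3) were called there, 38 (20.4%) in the one labelled control-GFP 2, 158 (84.9%) in the one labelled knockout-GFP 2 and 6 in the one labelled knockout-Acsl4 2. Its other 322 regions, the larger number, were called in the lists labelled control-GFP 1 and 2 in 150 (46.6%) and 99 cases (30.7%). The list labelled knockout-Acsl4 2, the longest, had 311 regions at gene ends, of which 43 (13.8%, 10.2 to 18.2) were called in the list labelled control-GFP 1 and 55 (17.7%) in the one labelled knockout-GFP 2. Its other 5560 regions were called in the list labelled control-GFP 1 in 77 cases (1.38%). The scores behind these lists also differ in kind. Peaks with a score under 2, where the score is read as the −log10 q of the authors' peak caller, made up 59.1% of the list labelled knockout-Acsl4 2, 14.7% of the one labelled knockout-Acsl4 1, 33.2% of the one labelled control-GFP 2 and 3.76% of the one labelled control-GFP 1. Their part in the counts was not tested beyond the trimmed lists and the alternative minimum scores.

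The position of gene ends along each ranked list set the libraries labelled knockout-Acsl4 apart from each other. In the strongest 25% of the list labelled knockout-Acsl4 1, 2 of 132 peaks (1.52%) lay at gene ends, and 44.7% were in regions called in all 6 lists. In its next 25% of peaks the share was 53.4%, then 55.0%, and 33.6% in the weakest. The list labelled knockout-Acsl4 2 stayed between 3.68% and 6.88% throughout. The list labelled control-GFP 1 went from 75.9% in the strongest to 60.3% in the weakest, and the one labelled control-GFP 2 from 28.3% to 11.3%.

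**Figure D2:**
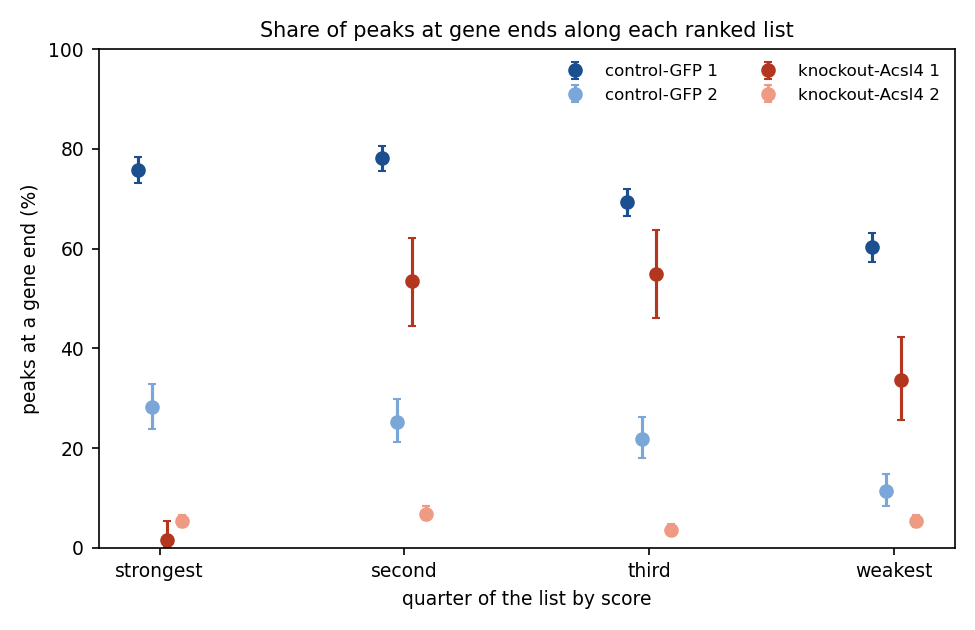
Share of peaks at a gene end (%) in each successive 25% of the 4 ranked lists, from the strongest to the weakest scores, with 95% exact intervals. The list labelled knockout-Acsl4 1 begins at 1.52% and reaches 53.4% and 55.0%, while the one labelled knockout-Acsl4 2 does not exceed 6.88%.

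The lists labelled knockout-GFP, which took no part in choosing the regions, called most control-only regions. Both of them called 151 of 256 (59.0%, 52.7 to 65.1), and at least 1 called 231 (90.2%, 85.9 to 93.6). Of the remainder, 25 regions were called in neither. Those called once were nearly all in the list labelled knockout-GFP 2, with 75 regions, against 5 in the one labelled knockout-GFP 1. Regions of the list labelled control-GFP 1 alone had a knockout-GFP call in 57.6% of 3815 cases, and those of the list labelled control-GFP 2 alone in 3.33% of 1202. Regions in both control lists and at least 1 list labelled knockout-Acsl4 had such a call in all 140 cases, and in both knockout-GFP lists in 120 (85.7%, 78.8 to 91.1). The difference between these shares and the ones of control-only regions was not tested. At regions of the list labelled knockout-Acsl4 2 alone, 29 of 5727 (0.506%) had a knockout-GFP call, and at those of the list labelled knockout-Acsl4 1 alone 17.2% of 192.

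**Figure D3:**
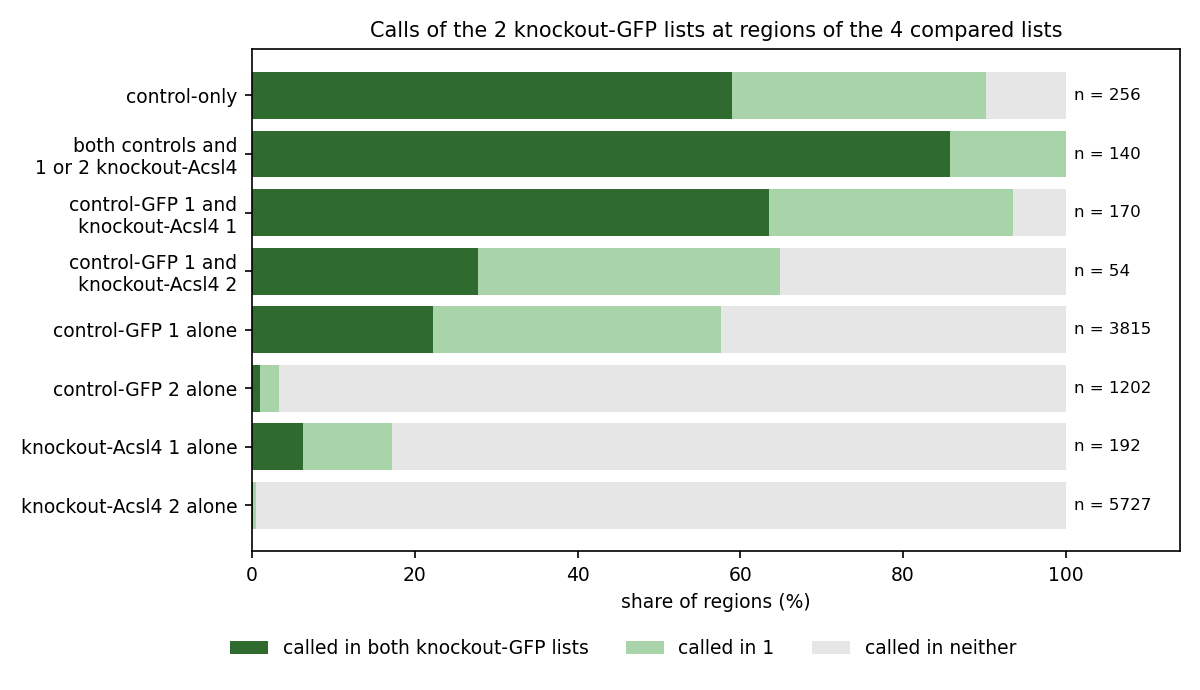
Share of regions (%) called in both, 1 or neither of the lists labelled knockout-GFP, for groups of regions defined on the 4 compared lists, with the number of regions at the right. Control-only regions are called in both in 59.0% and in at least 1 in 90.2%, against 0.506% in at least 1 for the regions of the list labelled knockout-Acsl4 2 alone.

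Control-only regions ranked below the shared regions that both control lists called. Their score percentile, the rank of a peak within its own list, had a median of 78.8 in the list labelled control-GFP 1 (middle 50% from 59.7 to 90.1) and of 67.3 in the one labelled control-GFP 2. For the 140 regions of both control lists that were also called in a list labelled knockout-Acsl4, these medians were 98.0 and 95.5. Those 140 regions lay at gene ends in 30% of cases and were intergenic in 53.6%. Control-only regions did so in 80.9% and 7.42%. At the start of chromosome 9, named above, lay 17 of the 140 regions and 1 of the 256 control-only ones. These sets thus also differ in the kind of region. The part of that in the ranks was not tested. Within the control-only regions, the median percentile in the list labelled control-GFP 1 was 84.3 for those called in both knockout-GFP lists, 71.6 for those called in 1 and 49.9 for those called in neither. The percentiles of the 2 control lists were loosely related over the 256 regions (Spearman's rho 0.27, Pearson's r 0.22, a description only, since all points share the same libraries). A peak that just missed being merged was rare, since 4 of the 256 regions had a peak of a list labelled knockout-Acsl4 within 1000 bp and 9 within 5000 bp.

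The same order held at all gene-end peaks of the list labelled control-GFP 1. Among its strongest 25%, with scores of 10.1 to 84.8, 13.2% (10.9 to 15.8) were called in the list labelled knockout-Acsl4 1, 2.03% in the one labelled knockout-Acsl4 2 and 19.04% in the one labelled control-GFP 2. In the weakest 25%, with scores of 1.31 to 3.92, these shares were 0.889%, 0.254% and 1.78%. The lists labelled knockout-GFP 1 and 2 called 57.7% and 91.6% of the strongest and 16.4% and 37.0% of the weakest. The list labelled control-GFP 2 thus stood nearer to the lists labelled knockout-Acsl4 than to the ones labelled knockout-GFP in this respect, although it shares its group with the list labelled control-GFP 1.

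**Figure D4:**
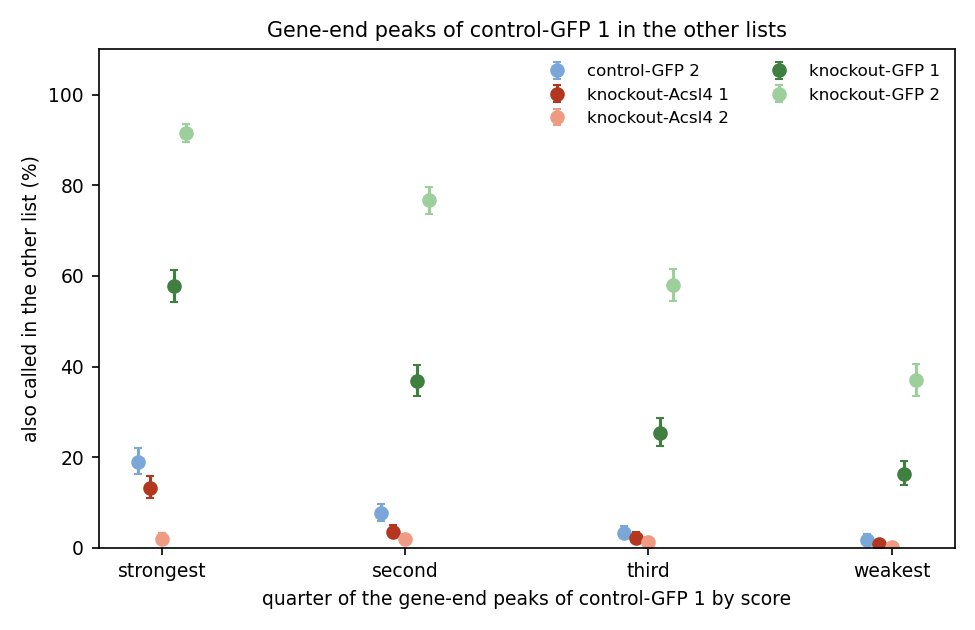
Share of the gene-end peaks of the list labelled control-GFP 1 (%) that were also called in each other list, for each successive 25% of these peaks by score, with 95% exact intervals. Every list finds fewer of the weaker peaks, and the lists labelled knockout-Acsl4 reach at most 13.2% and 2.03%. They hold 188 and 311 gene-end peaks in all, which bounds their shares.

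By genes, 289 of 21887 (1.32%) were control-only, 1 (0.00457%) was knockout-Acsl4-only and 297 (1.36%) were shared. The lists labelled control-GFP 1 and 2 marked 3652 genes (16.7%) and 438 (2%), against 224 (1.02%) and 345 (1.58%) in the ones labelled knockout-Acsl4 1 and 2. Both control lists marked 348 genes and both lists labelled knockout-Acsl4 marked 12. The lists labelled knockout-GFP 1 and 2 marked 1795 genes (8.2%) and 3788 (17.3%). Of the control-only genes, 171 were marked in both lists labelled knockout-GFP and 270 in at least 1. Without the library labelled control-GFP 2 there were 3359 control-only genes. The number of knockout-Acsl4-only genes was 233 without the library labelled knockout-Acsl4 1, 28 without the one labelled knockout-Acsl4 2 and 8 without the one labelled control-GFP 1.

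The control-only regions with the highest percentiles lay at genes of unrelated functions. The first lay at the start of Tomm40, the channel of the outer mitochondrial membrane through which proteins are imported, and within reach of the end of its neighbour Nectin2, a cell adhesion receptor. Its region spanned 19715477 to 19715980 on chromosome 7, with percentiles of 97.7 and 93.6 in the lists labelled control-GFP 1 and 2. It had no peak in the lists labelled knockout-Acsl4 and percentiles of 75.7 and 97.9 in the ones labelled knockout-GFP 1 and 2. Ifrd1, a transcriptional co-regulator, followed with 98.6 and 91.6 in the control lists and 94.4 and 95.3 in the lists labelled knockout-GFP, at 40223214 to 40223507 on chromosome 12. Cblb, a ubiquitin ligase that restrains receptor signalling, had a region of 904 bp with 96.4 and 93.2 in the control lists and 58.4 and 91.8 in the lists labelled knockout-GFP. These promoters were chosen for their high control percentiles, and all 3 were also called in both lists labelled knockout-GFP.

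The other leading control-only genes were Abtb1 and Podxl2, which share a region, Svip, Arl4a, Ppp2r1a, Opn3, Rasa1, Pcf11, Fem1c, and Cep57 with Fam76b. Their mean control percentiles ran from 94.9 at Abtb1 and Podxl2 to 91.9 at Cep57 and Fam76b. Ppp2r1a encodes the scaffold of the phosphatase PP2A, Rasa1 a GTPase-activating protein of RAS, and Pcf11 a factor of transcript cleavage and termination. Arl4a is a small GTPase of membrane traffic, Opn3 a non-visual opsin and Cep57 a centrosome protein. All 12 leading regions were called in both lists labelled knockout-GFP except that of Svip, which was called in the list labelled knockout-GFP 2 alone.

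Of the 256 control-only regions, 25 had no call in the lists labelled knockout-GFP, and 12 gene-end regions among them are named. The highest lay at Zyx, which encodes the focal adhesion protein zyxin, at 42349349 to 42350056 on chromosome 6, with percentiles of 87.7 and 67.1 in the lists labelled control-GFP 1 and 2. Gopc, a Golgi scaffold protein, had 61.3 and 81.8, and Riox2, a ribosomal oxygenase, 58.8 and 74.5. Taf8, a subunit of the general factor TFIID, had 56.9 and 71.7. The others were Cct7 with Pradc1, Fam135a, Tasp1, Ube3c, Fbxo46, Cdh2, Zfp954 and Gm13286, with mean percentiles from 63.2 down to 22.5.

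The unfolded protein response and ER quality control list held the most control-only genes of the 16 gene lists. Of its 34 genes, 5 were control-only (14.7%, beside 1.32% of all genes), none was knockout-Acsl4-only and 3 were shared. It was also the list most often marked in the library labelled control-GFP 1, with 29 of 34 genes, against 5 in the one labelled control-GFP 2, 2 in the one labelled knockout-Acsl4 1 and 1 in the one labelled knockout-Acsl4 2. As shares these were 85.3%, 14.7%, 5.88% and 2.94%, beside 16.7%, 2%, 1.02% and 1.58% of all genes. The list thus stood above all genes in each of the 4 libraries, on 2 and 1 genes in the ones labelled knockout-Acsl4. In the lists labelled knockout-GFP 1 and 2, 12 and 30 of the 34 genes were marked, beside 8.2% and 17.3% of all genes. All 5 genes marked in the list labelled control-GFP 2 were therefore control-only.

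Among the sensors and chaperones, Eif2ak3, the ER stress kinase PERK, had percentiles of 94.4 and 82.7 in the lists labelled control-GFP 1 and 2, and 86.6 and 95.9 in the ones labelled knockout-GFP 1 and 2. Hspa5, the ER chaperone BiP, had 75.8 and 89.9 in the control lists, and 18.2 and 84.6 in the lists labelled knockout-GFP. Its partner Dnajb11, a DNAJ co-chaperone of the ER lumen, had 51.3 and 90.3 in the control lists, and 47.6 and 36.8 in the lists labelled knockout-GFP. None of the 3 promoters had a peak in either list labelled knockout-Acsl4, and all were called in the other 4. In ER-associated degradation, Derl2, a channel component, had 58.1 and 89.1 in the control lists, and 90.0 and 75.5 in the lists labelled knockout-GFP. Svip, an inhibitor of that pathway, had 98.0 and 89.4 in the control lists, no peak in the list labelled knockout-GFP 1 and 78.4 in the one labelled knockout-GFP 2.

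The 3 shared genes of that list were Calr, Creld2 and Atf3. Calr, the ER lectin chaperone calreticulin, had percentiles of 93.8 in the list labelled control-GFP 1 and 73.0 in the one labelled knockout-Acsl4 1. Creld2, a disulphide isomerase induced by ER stress, had 78.5 and 39.2 in the same lists. Atf3, a stress-induced transcription factor, had 43.1 in the list labelled control-GFP 1 and 71.1 in the one labelled knockout-Acsl4 2, with peaks at 191183360 to 191183665 and 191183404 to 191183589 on chromosome 1. Its scores there were 5.05 and 2.49, in the opposite order, since a percentile ranks a peak only within its own list. None of the 3 genes had a peak in the list labelled control-GFP 2.

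In the mTORC2, insulin and FOXO list, 2 of 35 genes were control-only and none was marked in a list labelled knockout-Acsl4, while the lists labelled control-GFP 1 and 2 marked 17 and 4. Over all genes, 1.32% were control-only, beside 5.71% of this list. In the lists labelled knockout-Acsl4, 1.02% and 1.58% of all genes were marked, so a count of none among 35 is near the background. The 17 and 4 genes marked in the control lists are 48.6% and 11.4%, beside 16.7% and 2% of all genes. Gsk3b, the AKT substrate kinase GSK3 beta, had percentiles of 85.9 and 89.3 in the control lists, and 19.2 and 92.6 in the lists labelled knockout-GFP. Ppp2r1a, named above, was the other. Foxo1 itself (chromosome 3) had 1 peak, in the list labelled control-GFP 2, with a score of 2.40 at percentile 40.7. Of 24 FOXO targets, Klf6, a zinc finger factor that is also an immediate early gene, was control-only, with 89.8 and 33.2 in the control lists. The list labelled control-GFP 1 marked 10 FOXO targets (41.7%, beside 16.7% of all genes). The one labelled control-GFP 2 marked 1 (4.17%, beside 2%).

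In the fatty acid and phospholipid list, where Acsl4 belongs, none of 40 genes was control-only or knockout-Acsl4-only, and 2 were shared. Over all genes these shares were 1.32%, 0.00457% and 1.36%, so the counts of none are near the background. Acsl1, the main long-chain acyl-CoA synthetase of many tissues, had peaks at 46470711 to 46471000 and 46470851 to 46471068 on chromosome 8 in the lists labelled control-GFP 1 and 2, at percentiles of 81.5 and 88.5. Its peak in the list labelled knockout-Acsl4 2, at 46471227 to 46471583 and percentile 36.5, did not overlap them. The lists labelled control-GFP 1 and 2 marked 12 and 1 of the 40 genes (30% and 2.5%, beside 16.7% and 2% of all genes). The ones labelled knockout-Acsl4 1 and 2 marked 1 and 3 (2.5% and 7.5%, beside 1.02% and 1.58%).

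None of 32 antioxidant genes was control-only, knockout-Acsl4-only or shared, counts near the 1.32%, 0.00457% and 1.36% of all genes. The list labelled control-GFP 1 marked 6 of them (18.8%, beside 16.7% of all genes), namely Nfe2l2, the master regulator of the oxidative response, and Txn1, Txn2, Gsr, Sod1 and Sod2, enzymes and carriers of redox defence. Keap1, the adaptor that targets the Nfe2l2 product for degradation, was marked in the list labelled knockout-Acsl4 2 alone of the 4. Among 12 dedifferentiation and disallowed genes, Myc, a growth-promoting transcription factor, was marked in the list labelled control-GFP 1 and none in the other 3. That is 8.33% of these genes, beside 16.7% of all genes.

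The remaining lists each held 1 or 2 control-only genes, shares of 3.57% to 6.06% beside 1.32% of all genes. So few genes cannot be set apart from that share. In mitochondrial import and dynamics they were Tomm40 and Tomm70a, a channel and a receptor of the outer membrane import complex, of 33 genes. Among 48 chromatin modifiers they were Smarca4 and Smarcc1, the ATPase and a core subunit of the BAF remodeller. Cblb was the only one of 28 ubiquitin ligases, Klf6 of 26 immediate early genes, and Polr2a, the large subunit of RNA polymerase II, of 25 housekeeping genes. Polr2a and Smarcc1 carried different peaks in the 2 control lists, so they are control-only as genes and not as regions. Over all lists, 14 of 403 genes (3.47%) were control-only, none was knockout-Acsl4-only and 9 were shared. Of all genes, 1.32%, 0.00457% and 1.36% had these patterns. The lists were written with earlier results of these data known, and no set was tested.

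**Figure D5:**
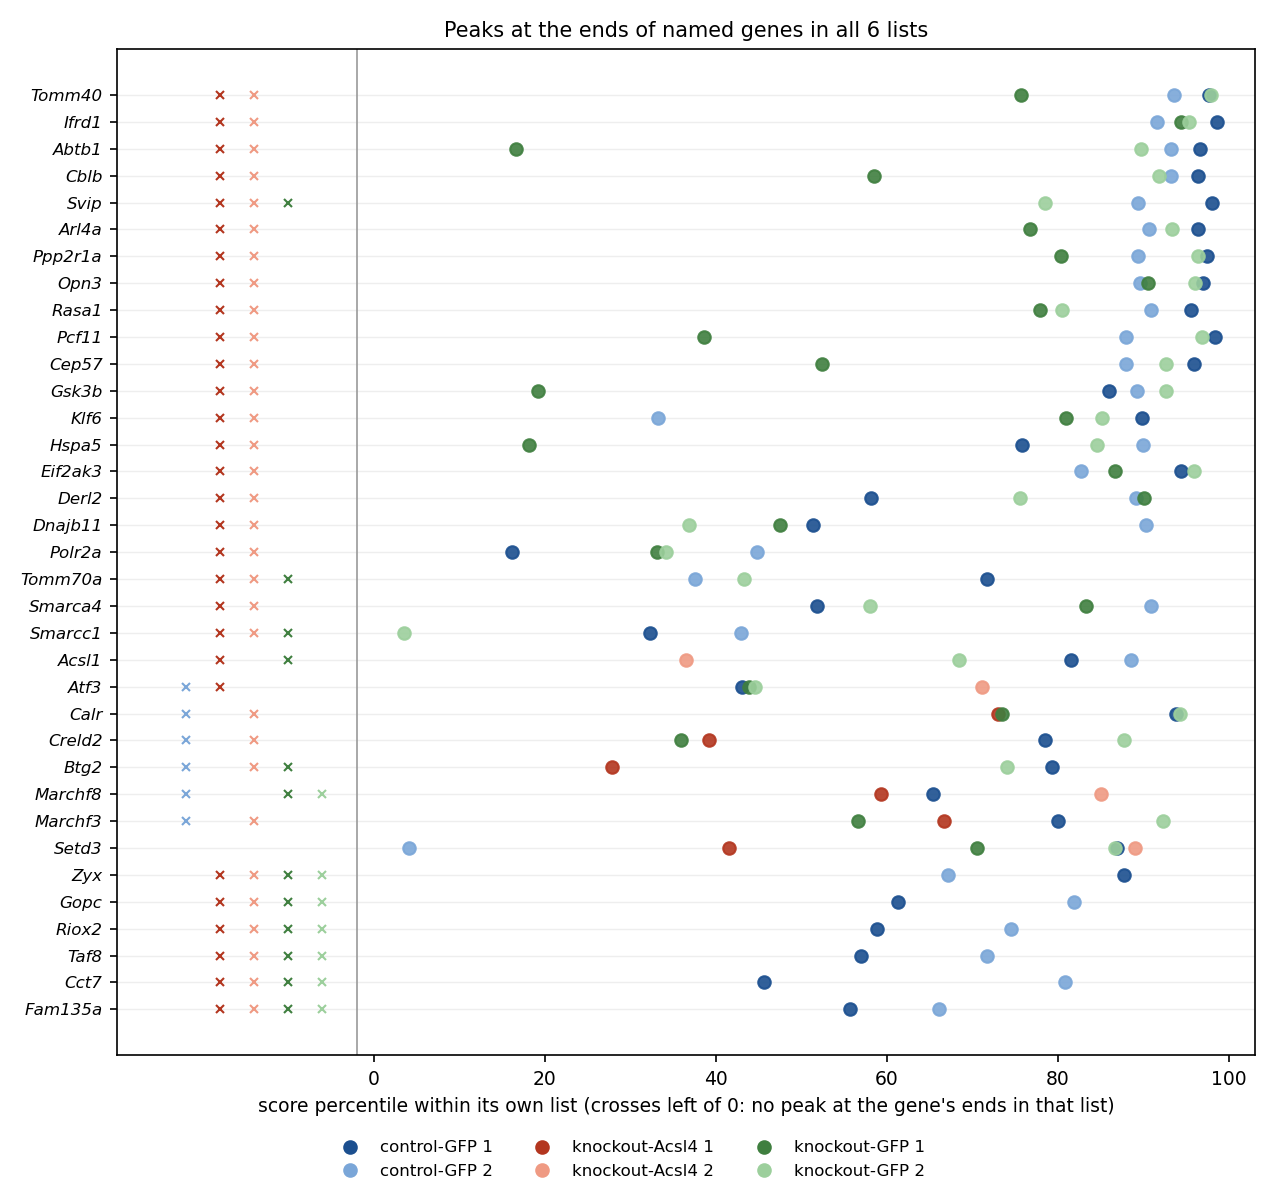
Score percentile of the peak at the ends of the named genes in each of the 6 lists, coloured by list, with crosses left of 0 for lists without such a peak. The upper genes are control-only and have crosses for both lists labelled knockout-Acsl4, and the 6 lowest have crosses for both lists labelled knockout-GFP as well.

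Few gene ends were open in all 4 lists. Only 2 such regions were called, at Ripk2, a kinase of innate immune signalling, and between Ccnk, the cyclin of CDK12, and Setd3, an actin histidine methyltransferase. The Ripk2 region had percentiles of 98.5 and 91.5 in the lists labelled control-GFP 1 and 2, and 63.4 and 8.24 in the ones labelled knockout-Acsl4 1 and 2. That of Ccnk and Setd3 had 86.9 and 4.18 in the former, and 41.5 and 89.0 in the latter. As genes, 4 were marked in all 4 lists. The fourth was Hmgcs1, the cytosolic HMG-CoA synthase of the sterol pathway, named here after its values were seen, with 96.5 and 73.7 in the control lists and 2.86 and 13.96 in the lists labelled knockout-Acsl4. In the latter pair, only the peak of the list labelled knockout-Acsl4 1 overlapped the control peaks.

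The strongest gene-end regions called in 3 of the 4 lists included Oasl1, an interferon-induced gene, with percentiles of 98.8 and 96.1 in the control lists and 89.9 in the list labelled knockout-Acsl4 1. Lars2, the mitochondrial leucyl-tRNA synthetase, had 99.2 and 97.7 in the control lists and 76.4 in the list labelled knockout-Acsl4 1. Its region, at 123461878 to 123462145 on chromosome 9, had no start of the promoter table within 1000 bp. The same held for the regions of Chchd7 with Plag1 and of Mtfr1, named below, though that table is not complete. Rab8a, a GTPase of exocytosis, had 98.0 and 85.3 in the control lists and 88.0 in the list labelled knockout-Acsl4 2. Its scores, in the same order, were 38.0, 4.87 and 3.32. The others were Chchd7 with Plag1, Nr1d2, Mtfr1, Pwwp2a and Evi5l. Of these 8 regions, 5 had their call from the list labelled knockout-Acsl4 1, 2 from the one labelled knockout-Acsl4 2, and Pwwp2a from both, without one in the list labelled control-GFP 2.

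The 3 knockout-Acsl4-only regions all lay away from gene ends. They spanned 21613996 to 21614173 on chromosome 3, 74184201 to 74184473 on chromosome 9 and 60925817 to 60926049 on chromosome X. Their percentiles were 74.95 and 73.7, 59.3 and 79.99, and 27.9 and 73.7 in the lists labelled knockout-Acsl4 1 and 2, in that order. The region on chromosome 9 lay inside a gene and the others were intergenic. The list labelled knockout-GFP 2 called the one on chromosome X, and neither knockout-GFP list called the other 2. The single knockout-Acsl4-only gene was Gm46382, a predicted gene on chromosome 12. Its peaks, at 112723072 to 112723158 and 112722616 to 112722824 with percentiles of 19.2 and 70.8, did not overlap each other. The number of such regions was 5730 without the library labelled knockout-Acsl4 1, 195 without the one labelled knockout-Acsl4 2, 8 without the one labelled control-GFP 1 and 5 without the one labelled control-GFP 2.

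Gene-end regions of a single list labelled knockout-Acsl4, absent from both controls, had other ranks. In the list labelled knockout-Acsl4 1 the leading ones were those of Sfi1, Marchf8, Get1, Cwc15 with Kdm4d, Clpx, Amacr, Olfr117 and Cenpu, with percentiles from 63.8 at Sfi1 to 43.7 at Cenpu. Marchf8, a membrane ubiquitin ligase, also had peaks in the lists labelled control-GFP 1 and knockout-Acsl4 2, which did not overlap this one. Clpx is the unfoldase of a mitochondrial protease, and Get1 inserts tail-anchored proteins into the ER. Sfi1, Get1, Clpx and Cenpu also had a peak in at least 1 list labelled knockout-GFP, but that of Clpx did not overlap the region named here. In the list labelled knockout-Acsl4 2 they were those of Htr1d, Gm11837, Chil1, Lurap1l, Tiam2, Fcsk, Fcrls and Tpra1, from 99.2 at Htr1d, a serotonin receptor, to 94.5 at Tpra1. None of these 8 genes had a peak in any other list.

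With each list trimmed to its best 525 peaks, 1696 regions remained, of which 55 (3.24%) were control-only, 1 (0.059%) was knockout-Acsl4-only and 188 (11.1%) were shared. The score of the last peak kept was 14.7 in the list labelled control-GFP 1, beside 14.7 for the first left out, and 3.26 for both in the one labelled control-GFP 2. It was 3.71 for both in the list labelled knockout-Acsl4 2, and the whole list labelled knockout-Acsl4 1 was kept. Gene ends held 46 of the 55 control-only regions (83.6%, 71.2 to 92.2). The knockout-GFP lists, trimmed likewise, called 41 (74.5%) at least once and 15 (27.3%, 16.1 to 41.0) both times, against 59.0% with the lists as deposited. The only knockout-Acsl4-only region lay at 3010217 to 3010454 on chromosome 17 and was also called in the list labelled knockout-GFP 1.

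The leading control-only genes of the trimmed lists were Ifrd1, Tomm40 with Nectin2, Pdcd10 with Serpini1, Abtb1 with Podxl2, Svip, Pcf11, Cblb, Ppp2r1a, Opn3 and Arl4a. Of these 10 regions, 9 were control-only as deposited as well. Pdcd10 and Serpini1, neighbours that share a promoter, had percentiles of 96.5 and 94.2 in the deposited control lists. They were shared there through a peak of the list labelled knockout-Acsl4 2 at percentile 4.55, which trimming removed. By genes, 63 (0.288%) were control-only, 0 (0%) knockout-Acsl4-only and 80 (0.366%) shared in the trimmed lists.

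The promoters under control-only regions held the main motifs about as often as those under shared regions. The RefSeq table of promoters, from 250 bases before to 50 after a start, held 21263 promoters of 17492 genes, and 238 promoters of 220 genes overlapped control-only regions. CCAAT stood on either strand in 61.8% of these (147 promoters, 55.3 to 68.0), in 59.5% of 215 under shared regions, in 48.7% of 2671 under regions of the list labelled control-GFP 1 alone and in 38.2% of all. The GC box GGGCGG stood in 81.9% of control-only promoters, 82.3% of shared ones and 46.2% of all. Median GC content was 64% for control-only and 56.3% for all promoters, and the part of base composition in these shares was not tested.

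Rarer motifs gave small counts. The cAMP response element TGACGTCA stood in 5.88% of control-only promoters, 5.12% of shared ones and 2.23% of all. The ETS letters CCGGAAG stood in 19.7%, 19.1% and 11.6% in the same order, and in 20.7% under regions of the list labelled control-GFP 1 alone. The E-box CACGTG stood in 13.4%, 10.7% and 7.84%. The forkhead letters GTAAACA, of the kind FOXO factors bind, stood in 1 control-only promoter (0.42%, 0.0106 to 2.32), 2 shared ones (0.93%) and 3.01% of all. The AP-1 letters TGACTCA stood in 3.78% of control-only promoters, 2.33% of shared ones and 4.66% of all. The ER stress element, searched as CCAAT and CCACG with 9 free bases between them and so overlapping the CCAAT motif, stood in 1 control-only promoter, that of Hspa5, in 3 shared promoters and in 30 of all (0.141%). A match or its absence describes these letters only.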

How the data were processed

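ATAC-seq peak lists of 6 islet libraries were used, 1 per library, and 4 of them were compared. Per the submitters' processing notes, MACS2 2.1.1, BWA 0.7.10, SAMtools, Trimmomatic and FastQC were among the tools, with neither role nor setting. Those notes give hg38 and GRCh38, human builds, but chromosomes and gene ends match mouse GRCm38, so coordinates were taken as GRCm38 and are given 1-based. The value deposited by the authors with each peak was read as a −log10 q-value, since every list starts barely over 1.30, the −log10 of 0.05. This reading is not in any header, and the value was used only to rank peaks within a list. With 1 list per library, calling is assumed to have been done per library. The sources used here give no read depth.

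Peaks overlapping by at least 1 bp were merged, with genes and 250 + 50 base promoters from RefSeq tables of GRCm38.p6. Gene ends were windows of 1000 bp around both ends of 21887 protein-coding genes. The promoter table is not complete, and shares have exact Clopper-Pearson 95% intervals that cover counting error only. No region or gene was tested, since with 2 libraries a group the smallest two-sided exact permutation p is 0.333. Any p measures only the spread between these samples, and that spread may be technical. The regions, the 16 gene lists and the naming rule were chosen with earlier results of these data known. The rule names Rictor, Acsl4 and Foxo1, the 12 leading control-only gene-end regions, every knockout-Acsl4-only feature, and the 10 leading gene-end regions in all 4 or 3 lists. It also takes the 10 leading control-only regions of trimmed lists, list members with a group pattern, up to 4 shared members a list, 8 leading regions of each list labelled knockout-Acsl4, and up to 12 control-only regions without a knockout-GFP call. Trimmed lists keep the 525 best peaks, with ties taken by chromosome and start. Alternatives were a 50% overlap, the better 50% of each list, a score of at least 2, trimmed lists, autosomes only, omission of regions in all 6 lists, a 3000 bp window, gene starts only, a replicate block and leaving out each library. Reversed ties and trimmed lists without recurrent regions were added after seeing the data. All 403 list genes matched the gene table, and 1 shared member of the fatty acid list is not reported here by name. The merging was checked on simulated data. Python 3.11.15, numpy 2.4.6, pandas 2.3.3, scipy 1.17.1 and matplotlib 3.10.9 were used.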

Additional observations from a re-analysis of the deposited data

How the results depend on the processing

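With the better 50% of each list there were 163 control-only and 230 shared regions, 178 control-only and 0 knockout-Acsl4-only genes, and 48.5% of control-only regions were called in both knockout-GFP lists. Trimmed lists gave 55, 188, 63, 0 and 27.3% for these, with 1 knockout-Acsl4-only region, and the same values with ties reversed. Trimmed lists without regions of all 6 lists gave 55 control-only, 1 knockout-Acsl4-only, 137 shared and 0 regions in all 4, with 63 control-only and 0 knockout-Acsl4-only genes and 27.3%. As deposited, leaving out those regions left 1 region in all 4 lists instead of 51. A 3000 bp window gave 3 knockout-Acsl4-only genes and gene starts alone 2. Without 1 library at a time, control-only regions ranged from 265 to 4073, knockout-Acsl4-only regions from 5 to 5730, shared regions from 141 to 369 and regions in all remaining lists from 54 to 131. Control-only genes ranged from 301 to 3359, knockout-Acsl4-only genes from 1 to 233, and the share called in both knockout-GFP lists from 10.7% to 64.6%. A left-out library leaves its group with a single list, so the pattern is defined by fewer lists. The gene-end share difference stayed negative in every alternative run, from -50.4 to -1.13 points, and the exact p was never below 0.333. With the replicate number as a block it was -25.7 points (exact sign-flip p = 0.5), from -35.1 within number 1 and -16.4 within number 2. The labels do not say that numbers pair the libraries. Of 38 named control-only genes, 27 kept the pattern in the better 50%, 16 in trimmed lists and 34 each at a score of at least 2 and at gene starts. Depth is not given, so an absent peak means not called, not closed.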
